A study of Mus musculus with 8 samples.

Results

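The kinesin superfamily genes were examined in testes of wild type and *Morc2b*-/- males at postnatal day 12. Members were all genes in the deposited count tables whose symbol is Kif or Kifc followed by a number, which gave 41 of 24651 genes. The rule uses names and no measured value. The symbols *Kif4-ps* (a pseudogene), *Kif16bos* (a transcript opposite *Kif16b*), *Kifap3* and *Kifbp* (adaptor proteins) also begin with Kif but are not motors and were left out.

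Kinesins are ATP-driven motors that walk along microtubules or take them apart. Some build and move the mitotic and meiotic spindle and finish cell division, some carry vesicles, organelles and RNA, and some serve the cilium or the flagellum of sperm. The juvenile testis holds dividing spermatogonia, somatic Sertoli cells, and the first germ cells to enter meiosis, and motors of division and of transport both have roles there.

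Each library was made from both testes of 1 male on a mixed strain background, 4 wild type and 4 *Morc2b*-/- males in all. MORC2B is a germ cell protein, and in the mutant allele a neomycin cassette (PGKNeo) replaces exon 2, which holds the whole coding region. The allele derives from 1 targeted embryonic stem cell clone, and the animals were offspring of heterozygous intercrosses. The sample labels name the control group wild type, whereas the design text names it *Morc2b*+/-, and it is called wild type here. Replicate numbers in the labels do not say whether animals were littermates.

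Reads assigned to transcripts numbered 27144796 to 36941755 per library. Values are CPM, read counts scaled to a common library size with TMM factors. The targeted gene *Morc2b* was at 0.857 to 39.98 CPM in wild type and at 0.0688 to 3.29 CPM in *Morc2b*-/- libraries, so that wild type replicate 3 (0.857 CPM) lay below *Morc2b*-/- replicate 3 (3.29 CPM). The other 3 wild type libraries were at 11.7 or above and the other 3 *Morc2b*-/- libraries at 0.323 or below, so the targeted gene goes against the labels of both libraries numbered 3. Whether these are labelled correctly could not be settled. Wild type replicate 3 also had the lowest pachytene marker sum of the wild type (122 CPM over 9 genes). *Morc2b*-/- replicate 3 had the highest spermatid marker sum (319.6 CPM over 9 genes). The authors found MORC2B abundant in round spermatids and *Morc2b* expression only beginning at this age. The part of cell content in these *Morc2b* values was not tested. In what follows each name means the library so labelled, and the comparison was also made without both. Of 8 Sertoli markers 7 had a mean above 1 CPM, as had 9 of 10 markers of leptotene and zygotene spermatocytes. In total, 9 spermatid markers summed to 157 CPM in replicate 1 of the wild type and to 319.6 CPM in replicate 3 of *Morc2b*-/-, against 1.98 to 36.1 CPM in the other 6 libraries, and 8 epididymal markers summed to 249 CPM in wild type replicate 1 against at most 13.5 CPM elsewhere. The authors describe zygotene spermatocytes as the most advanced germ cells at this age, and found no spermatids in adult *Morc2b*-/- testes. The source of the spermatid transcripts was not tested. These are whole testes, in which fewer cells of a type and less RNA per cell cannot be told apart.

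Most kinesins grouped here under spindle and division share a feature of their promoters that the choice by name did not use. The cell cycle genes homology region, read as TTTGAA, is an element known from promoters of genes switched on late in the cell cycle. RefSeq promoter windows (GRCm38.p6, from 250 bases before to 50 bases after the annotated start) were matched for 33 of the 41 genes. On either strand, TTTGAA was present in 11 of 13 windows of spindle and division kinesins (84.6%), in 2 of 11 of transport kinesins, in 1 of 9 of kinesins of cilia and the kinesin-2 family, and in 20.2% of 27025 genes with such a window. A CCAAT box, read as CCAAT on either strand, accompanied it in 8 of the 13 (61.5%) and in 7.97% of all genes. *Kif18a* and *Kif2b* were the genes of the spindle and division group without TTTGAA. *Kif2a*, which also acts at spindle poles, was counted with the transport kinesins and had neither element. *Kifc1* and *Kifc5b*, near-identical copies, both count among the 11. A match of letters is no proof of a bound site, and windows of 8 members were not used here.

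The 30 bases around the copy nearest to the start are shown for the spindle genes that have one, since this is what they have in common. Each is written on the strand of the gene, with the element in capitals (TTCAAA is the same element on the other strand).
*Kif11*, chr19:37376351-37376380, plus strand: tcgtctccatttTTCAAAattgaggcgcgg
*Kif15*, chr9:122951050-122951079, plus strand: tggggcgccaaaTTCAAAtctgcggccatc
*Kif20b*, chr19:34922353-34922382, plus strand: gagccgccattgTTTGAAtttgaaaaccgg
*Kif23*, chr9:61946780-61946809, minus strand: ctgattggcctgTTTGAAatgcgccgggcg
*Kif22*, chr7:127042420-127042449, minus strand: gggccccggtaaTTCAAAagagagaagcgg
*Kif18b*, chr11:102925104-102925133, minus strand: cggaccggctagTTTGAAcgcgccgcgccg
*Kif4*, chrX:100626072-100626101, plus strand: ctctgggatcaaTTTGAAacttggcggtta
*Kif14*, chr1:136467608-136467637, plus strand: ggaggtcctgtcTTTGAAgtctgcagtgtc
*Kif2c*, chr4:117178858-117178887, minus strand: ccaggctgctctTTCAAAcctgagtaatgc
*Kifc1*, chr17:33890615-33890644, minus strand: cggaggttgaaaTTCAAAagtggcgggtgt
*Kifc5b*, chr17:26917108-26917137, plus strand: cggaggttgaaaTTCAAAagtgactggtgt
In *Kif11*, *Kif15* and *Kif22* the element begins 17 to 19 bases before the start, and in *Kif23*, *Kif18b*, *Kif20b* and *Kifc1* at bases 2 to 8 after it. Those of *Kif2c* and *Kif14* lie farther upstream, at -103 and -228. *Kifc1* and *Kifc5b* are near-identical copies on chromosome 17.

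Not every kinesin could be measured. The authors' tables list RefSeq transcripts, and a read falling on several listed transcripts was counted for none of them (26.8% to 28.8% of the reads that were counted, ambiguous or on no feature), so a gene listed under several overlapping transcripts keeps only part of its reads. There were 28 kinesin genes with 1 listed transcript and 13 with more than 1. *Kif3a* (3 transcripts), *Kif7* and *Kif12* (2 each) had 0 counts in every library, which says nothing of their expression. *Kif1a* (4 transcripts) had 23 counts over the 8 libraries. The remaining 37 genes passed the filter on low counts, and 9 of these are listed more than once. Reads without a unique alignment were also left out, so *Kifc1* and *Kifc5b*, and *Kif4* with its pseudogene, may be undercounted. Exons of *Kif18a*, *Kif20a*, *Kif2a*, *Kif4*, *Kif5b*, *Kif6*, *Kif27*, *Kif3c*, *Kif26b* and *Kifc3* overlap a gene on the other strand, and those of *Kif17* overlap *Sh2d5* on the same strand, so their counts are less certain.

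The genotypes were compared to ask whether loss of *Morc2b* altered expression of these motors. No kinesin gene passed the test. Of 37 genes tested, 0 passed an adjusted p of 0.05 in the quasi-likelihood test of edgeR, where 0 of all 13507 tested genes (0%) did. The targeted gene *Morc2b* did not pass either. It was at 11.7, 16.2, 0.857 and 39.98 CPM in wild type and at 0.323, 0.27, 3.29 and 0.0688 CPM in *Morc2b*-/- libraries. A gene that did not pass is thus not shown to be unchanged. At an unadjusted p under 0.05 there were again 0 of 37, beside 1.84% of all tested genes, and limma-voom also gave 0 kinesin genes at either threshold, as did DESeq2 for the 36 genes it gave a p (it gave none for *Kif2b*). Without both libraries numbered 3, 0 kinesin genes passed the adjusted threshold and 1 (*Kif24*) had an unadjusted p under 0.05 in edgeR, as had 421 of all 13511 genes tested. The genotypes overlapped in all 37 genes, while they did not overlap in 1.29% of all tested genes. The median log2 fold change in *Morc2b*-/- testes was -0.040 for the kinesin genes, 13 higher and 24 lower, and 0.0022 for all tested genes, 6860 higher and 6647 lower. On leaving out 1 library the kinesin median ran from -0.057 (without wild type replicate 4) to -0.010 (without wild type replicate 1).

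The precision of each fold change is given by its interval, which is not adjusted for the number of genes. The adjusted threshold asks for more. The lowest unadjusted p of all tested genes, 0.00051 in the quasi-likelihood test of edgeR, did not pass it. For 30 of the 37 genes (81.1%), the 95% interval of the fold change stayed within 1.5-fold in either direction, as it did for 66.6% of all tested genes. The median standard error was 0.11 (log2) for the kinesin genes and 0.14 for all. The precision varied between genes. The interval reached 0.14 (log2) to either side of the estimate in *Kif14*, the narrowest, and 2.42 in *Kif2b*, the widest. The 1.5-fold bound was passed by the intervals of the other 7 genes, *Kif2b*, *Kif20a*, *Kif9*, *Kif26b*, *Kif21a*, *Kifc3* and *Kif2a*. These had from 198 (*Kifc3*) to 1074 (*Kif21a*) counts over the 8 libraries. *Kif17* and *Kif19a*, with 602 and 761 counts, stayed within the bound. In 25 of the 37 genes the highest library was less than 1.5 times the lowest.

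**Figure D1:**
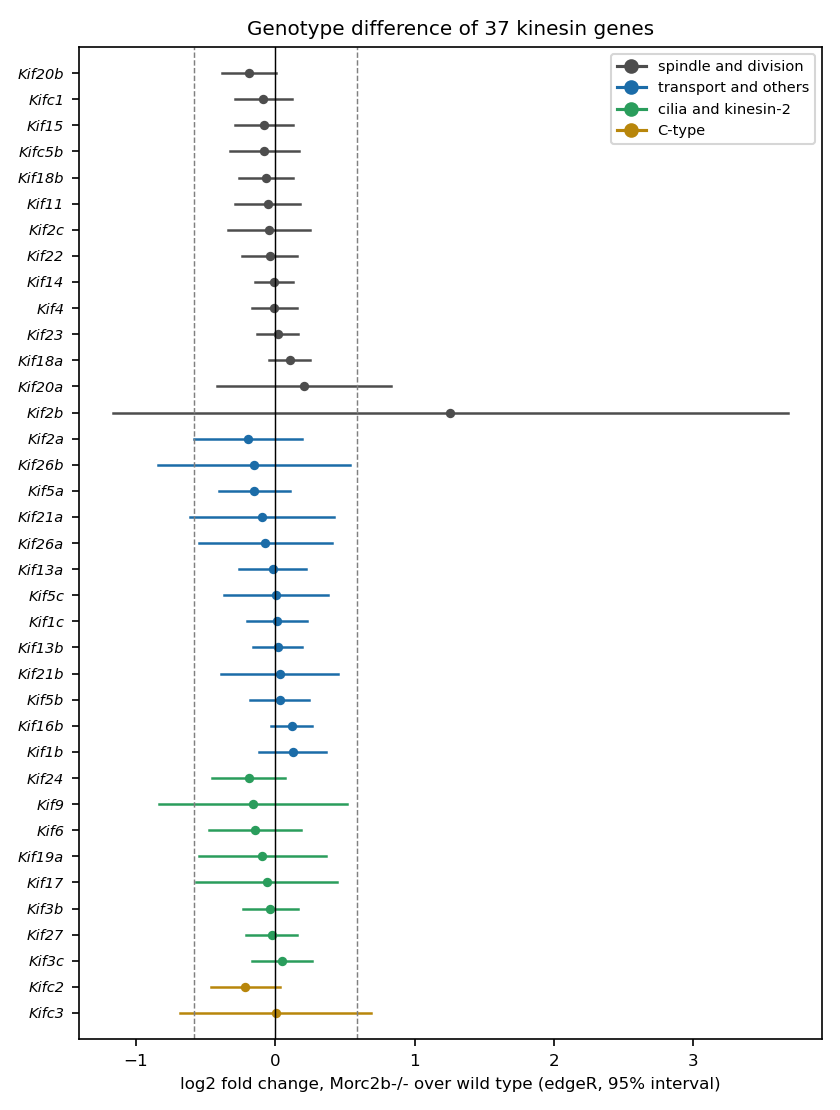
Log2 fold change of CPM in *Morc2b*-/- over wild type testes (x axis) for the 37 kinesin genes tested (y axis, grouped and coloured by role), with unadjusted 95% intervals from edgeR. Dashed lines mark 1.5-fold. All intervals include 0, and that of *Kif2b* (-1.17 to 3.68) is the widest.

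The spindle and division kinesins had a median ratio of highest to lowest library of 1.32, where all kinesin genes had 1.36 and all tested genes 1.48. All 14 passed the filter, 10 were lower and 4 higher in *Morc2b*-/- testes, and their median log2 fold change was -0.042. That median was 0.0013 without wild type replicate 1 and -0.094 without *Morc2b*-/- replicate 2, so its direction was not stable. *Kif11*, the motor that slides spindle microtubules apart to separate the poles, was at 237, 226, 177 and 231 CPM in wild type replicates 1 to 4 and at 188, 225, 198 and 229 CPM in *Morc2b*-/- replicates 1 to 4. The lowest library was a wild type one, and the log2 fold change of -0.055 ± 0.10 (SE) was within the spread between replicates. *Kif11* lies on chromosome 19 (37450893 to 37496349, NCBIM37).

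*Kif23*, a subunit of centralspindlin that acts at the midzone in cytokinesis and at the intercellular bridges of germ cells, was at 236, 271, 231 and 238 CPM in wild type and at 234, 264, 238 and 251 CPM in *Morc2b*-/- testes. The genotypes differed by 0.017 (log2) ± 0.066 (SE). Replicate 2 was the highest library of each genotype. *Kif23* lies on chromosome 9 (61765087 to 61794606).

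*Kif20b*, a midzone motor of late cytokinesis, had the smallest p of the tested genes chosen by symbol. It was at 157, 172, 163 and 169 CPM in wild type and at 158, 134, 126 and 163 CPM in *Morc2b*-/- testes. Replicates 2 and 3 of *Morc2b*-/- were below all wild type libraries, and replicates 1 and 4 were among them. The genotypes differed by -0.19 (log2) ± 0.087 (SE, unadjusted p = 0.0588, quasi-likelihood adjusted p = 0.9998 in edgeR), and a two-sided exact permutation test on log2 CPM gave p = 0.114, where 4 against 4 libraries allow no value below 0.0286. *Kif20b* lies on chromosome 19 (34996848 to 35050221).

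*Kif18a*, which shortens microtubules at their plus ends and aligns chromosomes, and is needed for germ cell development in mice, was at 74.7, 80.7, 78.5 and 76.6 CPM in wild type and at 74.9, 87.8, 84.5 and 86.5 CPM in *Morc2b*-/- testes. Replicates 2 to 4 of *Morc2b*-/- were above every wild type library, and replicate 1 was near the lowest of them. *Kif18a* had a log2 difference of 0.10 ± 0.065 (SE), with an interval of -0.04 to 0.25.

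*Kif15*, which works beside *Kif11* in the bipolar spindle, was at 129.9, 156, 128 and 145 CPM in wild type and at 123, 149, 118 and 139 CPM in *Morc2b*-/- testes. In both genotypes replicates 2 and 4 were above replicates 1 and 3. So were the markers of leptotene and zygotene spermatocytes, with 10 genes summing to 2660, 3636, 2197 and 3899 CPM in wild type and to 1963, 2915, 2181 and 3862 CPM in *Morc2b*-/- replicates 1 to 4, and their part in the values of *Kif15* was not tested. The log2 fold change of *Kif15* was -0.080 ± 0.092 (SE), and it was -0.020 without wild type replicate 2 and -0.14 without *Morc2b*-/- replicate 2.

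*Kif4*, a chromosome arm motor encoded on chromosome X (97821076 to 97922553), was at 110.1, 111, 96.4 and 102 CPM in wild type and at 98.5, 115, 101 and 104 CPM in *Morc2b*-/- testes. The group means, 105 ± 6.91 and 105 ± 7.32 CPM (SD, n = 4), lay within 1 SD of each other. Its log2 fold change was -0.0054 with an interval of -0.16 to 0.15, and it was 0.030 without wild type replicate 1 and *Morc2b*-/- replicate 3.

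*Kifc1*, a minus-end motor that focuses spindle poles and later shapes the nucleus and acrosome of spermatids, was at 37.9, 31.3, 31.6 and 29.8 CPM in wild type and at 29.2, 32.8, 30.1 and 31 CPM in *Morc2b*-/- testes. Wild type replicate 1 was the highest library. *Kifc5b*, its near-identical copy, was at 21.2, 21.1, 16 and 19.1 CPM in wild type and at 16.7, 19.8, 18 and 18.7 CPM in *Morc2b*-/- testes. The genotypes overlapped in both genes, with log2 fold changes of -0.084 ± 0.091 (SE) for *Kifc1* and -0.078 ± 0.11 (SE) for *Kifc5b*.

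*Kif2c*, which depolymerizes microtubules at centromeres, and *Kif20a*, which brings the passenger complex to the midzone, are listed under 2 and 3 transcripts and were covered only in part. *Kif2c* was at 5.78, 7.23, 6.93 and 7.7 CPM in wild type and at 6.17, 7.68, 6.42 and 6.5 CPM in *Morc2b*-/- testes. *Kif20a* was at 2.37, 2.42, 1.32 and 2.42 CPM in wild type and at 1.87, 2.62, 1.86 and 3.51 CPM in *Morc2b*-/- testes. The log2 fold change of *Kif20a*, 0.21, had a standard error of 0.28, so neither its direction nor its size was resolved.

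Among the other division motors, *Kif14*, *Kif18b* and *Kif22* were at 67 to 76.4, 57.1 to 75 and 72.2 to 92.4 CPM over the 8 libraries. *Kif14*, a motor of cytokinesis, varied least in the whole family, with a highest library 1.14 times the lowest.

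**Figure D2:**
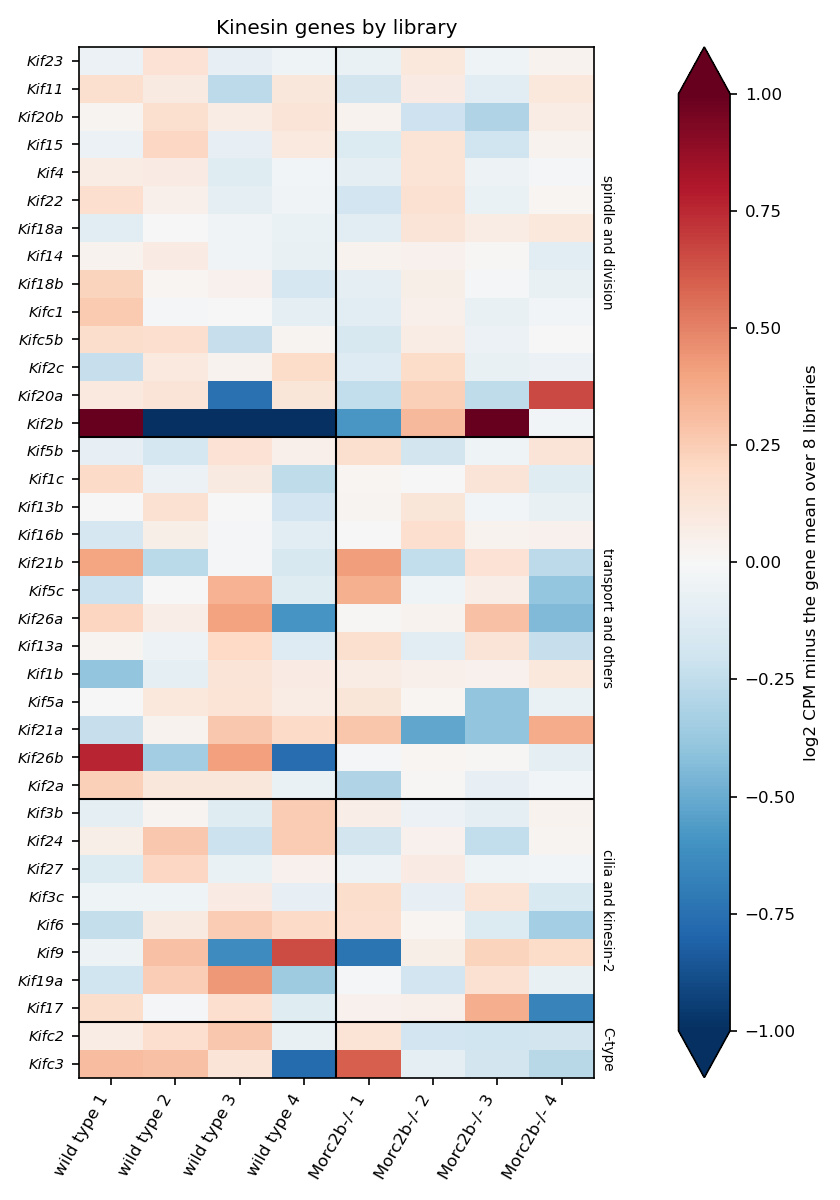
Log2 CPM of each kinesin gene minus its mean over the 8 libraries, in colour, with libraries on the x axis and genes on the y axis grouped by role and ordered by mean CPM. The scale ends at 1 and -1, and colours beyond these are the darkest. Most rows of the spindle group are pale, whereas *Kif2b* is darkest red in wild type replicate 1 and *Morc2b*-/- replicate 3.

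*Kif2b* stood apart from the rest of the family. It belongs with *Kif2a* and *Kif2c* to the motors that depolymerize microtubules, is encoded on chromosome 11 (91436629 to 91438923, NCBIM37), and is listed under 1 transcript. Its counts were 144, 10, 6 and 15 in the wild type libraries, in the order of their numbers, and 21, 47, 320 and 29 in the *Morc2b*-/- libraries. In CPM these were 3.92, 0.367, 0.214 and 0.471 in wild type and 0.679, 1.27, 9.17 and 0.997 in *Morc2b*-/- testes, a highest library 42.8 times the lowest. The next widest ratio in the family was 2.88, in *Kif26b*.

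The libraries highest in *Kif2b*, *Morc2b*-/- replicate 3 and wild type replicate 1, were those highest in spermatid markers (319.6 and 157 CPM summed over 9 genes). *Prm1*, a protamine of condensing spermatids, was at 49.3 and 29.3 CPM in these libraries, and *Tnp1*, a transition protein, at 111 and 52.9 CPM. In *Morc2b*-/- replicates 1, 2 and 4 the markers summed to 19.1, 36.1 and 2.89 CPM, and in wild type replicates 2 to 4 to 2.53, 3.61 and 1.98 CPM. *Prm1* was at 0 CPM in *Morc2b*-/- replicate 4, where *Kif2b* was at 0.997 CPM. Where the spermatid transcripts came from, and their part in the level of *Kif2b*, was not tested.

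Over all libraries the log2 fold change of *Kif2b* was 1.26 ± 1.07 (SE, quasi-likelihood adjusted p = 0.9998 in edgeR), with an interval of -1.17 to 3.68 that leaves its direction unresolved. Without wild type replicate 1 it was 3.09, and without *Morc2b*-/- replicate 3 it was -0.36. Without both libraries numbered 3 it was -0.71 ± 0.84 (SE). Without wild type replicate 1 and *Morc2b*-/- replicate 3 it was 1.47 ± 0.37 (SE, unadjusted p = 0.00518, quasi-likelihood adjusted p = 0.9998 in edgeR). These libraries held the highest *Kif2b* value of their genotype, so leaving them out also narrows the spread, and no weight is given to this p. In this setting 215 of 13359 tested genes had an unadjusted p under 0.05 in edgeR. In those 6 libraries, each of the 3 *Morc2b*-/- values was above each of the 3 wild type values, from 6 to 15 counts in wild type and 21 to 47 counts in *Morc2b*-/- testes. How many of all genes separate in this way with 3 against 3 libraries was not counted, so no weight is given to it.

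**Figure D3:**
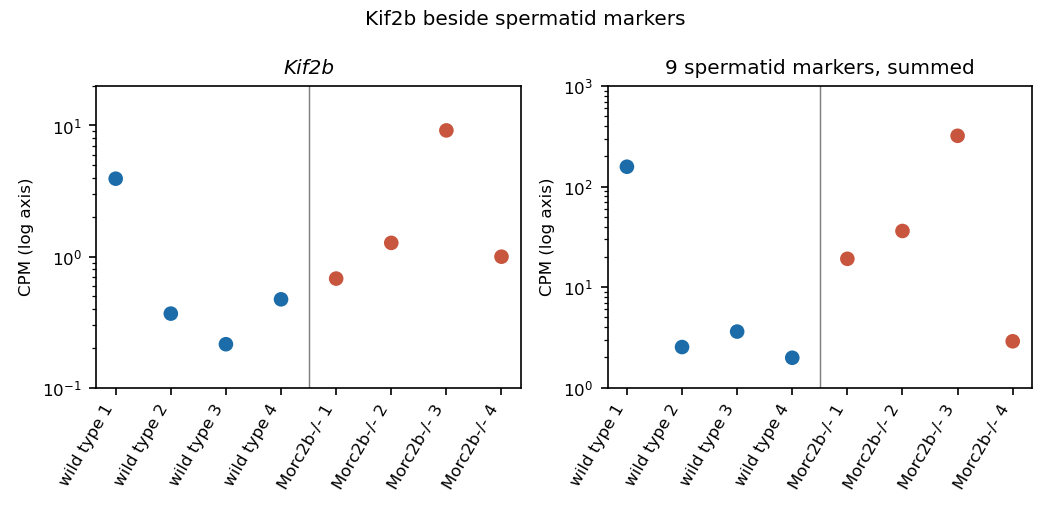
CPM of *Kif2b* (left) and the summed CPM of 9 spermatid markers (right) in each library, on log axes, with wild type libraries 1 to 4 in blue and *Morc2b*-/- libraries 1 to 4 in red. Wild type 1 (3.92 and 157 CPM) and *Morc2b*-/- 3 (9.17 and 319.6 CPM) are highest in both panels.

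The kinesin-2 motors and the motors tied to cilia and flagella held 10 genes, of which 8 were tested. Their median log2 fold change was -0.076, with 7 genes lower and 1 higher in *Morc2b*-/- testes, and no gene passed the test. *Kif3b*, a subunit of the motor that carries intraflagellar transport trains outward, was at 165, 179.9, 162 and 211 CPM in wild type and at 185, 169.9, 165 and 182 CPM in *Morc2b*-/- testes. Its partner *Kif3a* could not be measured. The log2 fold change of *Kif3b* was -0.036 ± 0.087 (SE), and its alternative partner *Kif3c* was at 25 to 31.5 CPM over the libraries.

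*Kif24*, which remodels centriolar microtubules and holds back cilium assembly, was at 84.5, 97.6, 69.7 and 96.9 CPM in wild type and at 71.2, 83.4, 68.3 and 82.6 CPM in *Morc2b*-/- testes. As in *Kif15* and the spermatocyte markers, replicates 2 and 4 were above replicates 1 and 3 in each genotype. The genotypes differed by -0.19 (log2) ± 0.12 (SE, quasi-likelihood adjusted p = 0.9998 in edgeR), with an interval of -0.46 to 0.07. Without both libraries numbered 3 it was -0.23 ± 0.097 (SE, unadjusted p = 0.0445, quasi-likelihood adjusted p = 0.9999 in edgeR).

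*Kif27*, a relative of the Hedgehog pathway motor *Kif7* with a role in motile cilia, was at 57.8, 73.4, 60.5 and 65.5 CPM in wild type and at 61.2, 67.3, 61.8 and 62.3 CPM in *Morc2b*-/- testes. The wild type values enclosed all *Morc2b*-/- values. *Kif6* and *Kif9* belong to 1 family found in ciliated and flagellated cells. *Kif6* was at 10.7, 13.4, 15 and 14.4 CPM in wild type and at 14.2, 12.8, 11.5 and 9.94 CPM in *Morc2b*-/- testes, and *Kif9*, listed under 2 transcripts, was at 3.16, 4, 2.11 and 5.12 CPM in wild type and at 1.97, 3.41, 3.81 and 3.71 CPM in *Morc2b*-/- testes. Log2 fold changes were -0.026 for *Kif27*, -0.15 for *Kif6* and -0.16 for *Kif9*, each smaller than or about equal to its standard error.

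*Kif17*, known in the testis for its association with the transcriptional coactivator ACT in spermatids, was at 2.59, 2.27, 2.57 and 2.11 CPM in wild type and at 2.36, 2.38, 2.95 and 1.44 CPM in *Morc2b*-/- testes. All its counts were on 1 of its 2 listed transcripts. *Morc2b*-/- replicate 3, which had the most spermatid transcripts, was its highest library, and replicate 4 its lowest. *Kif19a*, a motor that limits the length of cilia, was at 2.33 to 4 CPM.

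The transport motors and the remaining kinesins held 15 genes, 13 of them tested, with a median log2 fold change of 0.0041, 7 higher and 6 lower. Leaving out 1 library took this median from -0.081 (without *Morc2b*-/- replicate 1) to 0.048 (without *Morc2b*-/- replicate 4). *Kif5b*, the widespread conventional kinesin heavy chain, was at 613, 576, 718 and 673 CPM in wild type and at 726, 571, 631 and 709.7 CPM in *Morc2b*-/- testes. The highest and the lowest library were both *Morc2b*-/- ones. The log2 difference was 0.032 ± 0.095 (SE). The neuronal heavy chains *Kif5c* and *Kif5a* were at 71.7 to 119.9 and 17.4 to 25.2 CPM, and *Kif5a* is listed under 2 transcripts.

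*Kif1c*, a motor of Golgi and vesicle transport, was at 217, 183, 202 and 159 CPM in wild type and at 193, 191, 209 and 175 CPM in *Morc2b*-/- testes, and replicate 4 was lowest in each genotype. The log2 difference was 0.012 ± 0.097 (SE). *Kif16b*, a motor of early endosomes, was at 103, 121, 115 and 108 CPM in wild type and at 116, 131, 119 and 119.6 CPM in *Morc2b*-/- testes. Of the *Morc2b*-/- libraries 3 were within the wild type range, and the log2 fold change was 0.12 ± 0.065 (SE).

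*Kif21b* and *Kif26a* are named for their uneven libraries. *Kif21b*, a motor that slows microtubule growth, was at 144, 90.6, 108 and 98 CPM in wild type and at 146, 92.2, 121 and 91 CPM in *Morc2b*-/- testes, so that replicates 1 and 3 were above replicates 2 and 4 in each genotype. *Kif26a*, an atypical kinesin without motor activity, was lowest in replicate 4 of each genotype, at 45.5 and 50.3 CPM against 68.9 to 90.3 CPM in the other libraries. *Kif13a* and *Kif13b*, vesicle motors, were at 52.6 to 70.8 and 138 to 174 CPM.

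*Kif2a*, a depolymerizing motor of neurons and spindle poles, is listed under 2 transcripts and had 29 to 50 counts per library. It was at 1.36, 1.25, 1.25 and 1.1 CPM in wild type and at 0.937, 1.16, 1.09 and 1.13 CPM in *Morc2b*-/- testes, where only wild type replicate 4 fell among the *Morc2b*-/- values. An exact permutation test (two-sided) gave p = 0.0857, and the log2 fold change was -0.20 ± 0.17 (SE). *Kif26b* was at 4.52, 2.09, 3.54 and 1.57 CPM in wild type and at 2.65, 2.7, 2.69 and 2.51 CPM in *Morc2b*-/- testes, with an SD over 4 libraries of 1.35 CPM in the former and 0.0893 CPM in the latter. *Kif1b* was at 37.3 to 53.6 CPM and *Kif21a* at 2.92 to 5.4 CPM. They are listed under 3 and 4 transcripts and were covered only in part.

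The remaining C-type motors, whose motor domain is at the end of the protein, are *Kifc2* and *Kifc3*. *Kifc2* was at 26.7, 28.6, 30.7 and 24.1 CPM in wild type and at 28, 22.3, 22.2 and 22.4 CPM in *Morc2b*-/- testes. Replicates 2 to 4 of *Morc2b*-/- were below all wild type libraries and replicate 1 was among them. The log2 difference was -0.21 ± 0.11 (SE, unadjusted p = 0.0822, quasi-likelihood adjusted p = 0.9998 in edgeR), it was -0.31 without *Morc2b*-/- replicate 1, and an exact permutation test (two-sided) gave p = 0.0857. *Kifc3*, listed under 3 transcripts, was at 0.927, 0.917, 0.821 and 0.44 CPM in wild type and at 1.13, 0.703, 0.659 and 0.619 CPM in *Morc2b*-/- testes, with means of 0.776 and 0.778 CPM.

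**Figure D4:**
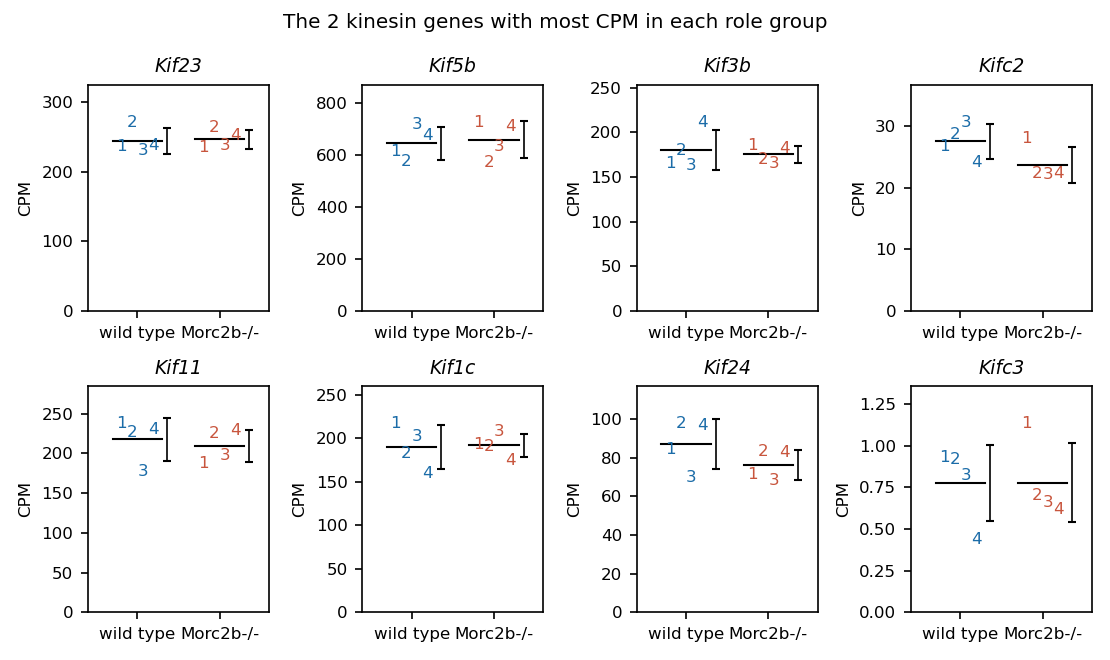
CPM (y axis, from 0) of the 2 genes with most CPM in each role group, by genotype. Digits are replicate numbers, horizontal lines are means, and error bars are the SD (n = 4). The genotypes overlap in each of the 8 genes, and *Kifc2* replicate 1 (28 CPM) stands above the other *Morc2b*-/- libraries.

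Levels were compared between genes only for the 28 genes listed under 1 transcript, as CPM per kilobase of the longest annotated coding transcript (NCBIM37 gene models, which may differ from the transcript counted). On this scale *Kif5b* led with 108 ± 10.5 (SD, n = 8), followed by *Kif23* with 71.6 ± 4.37, *Kif11* with 44.4 ± 4.71 and *Kif22* with 40.1 ± 3.41 CPM per kilobase. The ranges of *Kif5b* and *Kif23* did not meet those of their neighbours, whereas those of *Kif11* and *Kif22* overlapped. Below *Kif22* each gene down to *Kifc5b* (7.17 ± 0.715 CPM per kilobase) overlapped with the next. *Kif3c*, *Kif6*, *Kif2b*, *Kif19a* and *Kif26b* were the lowest of the 28 genes, with *Kif26b* last at 0.383 ± 0.123 CPM per kilobase. Of the 10 highest genes, 6 act in the spindle or in division, as do *Kif4*, *Kif18b*, *Kifc1*, *Kif14*, *Kifc5b* and *Kif2b* below them. Whether the share among the highest exceeds that among the 28 genes was not tested.

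**Figure D5:**
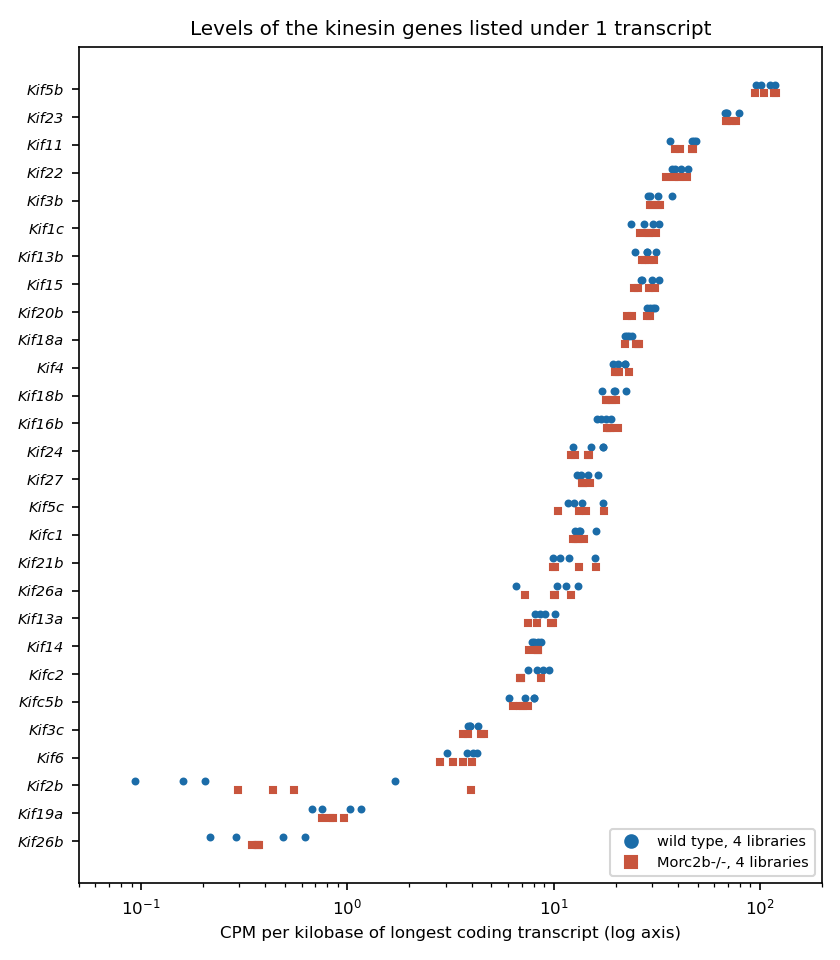
CPM per kilobase of longest coding transcript (x axis, log scale) in each library for the 28 kinesin genes listed under 1 transcript, ordered by mean. Circles are the 4 wild type and squares the 4 *Morc2b*-/- libraries. Levels fall from about 108 in *Kif5b* to 0.383 in *Kif26b*, and *Kif2b* is spread most widely along the axis.

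Genes that work with kinesins were taken as lists. Of 18 spindle and midzone genes 13 were tested and 0 passed the adjusted threshold, with a median log2 fold change of -0.057, 9 lower and 4 higher. *Cenpe*, itself a kinesin that carries chromosomes to the spindle equator and is missed by the choice by symbol, was at 227, 247, 224 and 219 CPM in wild type and at 218, 185, 176 and 212 CPM in *Morc2b*-/- testes. All *Morc2b*-/- libraries were below all wild type ones, although replicate 1 of *Morc2b*-/- was close to wild type replicate 4, and the log2 fold change was -0.21 ± 0.078 (SE, unadjusted p = 0.0238, quasi-likelihood adjusted p = 0.9998 in edgeR). *Mki67*, a marker of cycling cells, differed on the log2 scale by -0.22 ± 0.11 (SE), and *Top2a*, the topoisomerase of dividing cells and the gene with most CPM in this list, was at 1086 ± 116 CPM in wild type and 1073 ± 134 CPM in *Morc2b*-/- testes (SD, n = 4).

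Of 11 light chains, adaptors and regulators of kinesins only 5 could be tested, since *Klc1*, *Klc2*, *Klc3*, *Kifap3*, *Mapk8ip1* and *Mapk8ip3* are listed under several transcripts and had few or no counts. *Trak1* and *Trak2*, which link kinesin to mitochondria, had log2 fold changes of 0.026 ± 0.060 (SE) and 0.038 ± 0.058 (SE). *Mapk8ip2*, a scaffold that binds kinesin light chain, was at 6.35, 6.31, 2.68 and 9.37 CPM in wild type and at 2.68, 3.46, 4.44 and 3.89 CPM in *Morc2b*-/- testes, with a log2 fold change of -0.77 ± 0.33 (SE, quasi-likelihood adjusted p = 0.9998 in edgeR). The genotypes overlapped, as wild type replicate 3 was level with the lowest *Morc2b*-/- library.

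For the motors of the opposite direction, 19 of 22 genes of cytoplasmic dynein and dynactin were tested and 0 passed, with a median log2 fold change of -0.041. *Dync1h1*, the dynein heavy chain and the highest of them in CPM, was at 1897 ± 139 CPM in wild type and 1806 ± 142 CPM in *Morc2b*-/- testes (SD, n = 4). *Dynlt3* and *Dctn5* had log2 fold changes of 0.25 ± 0.12 (SE) and 0.093 ± 0.060 (SE).

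Of 20 intraflagellar transport genes, which encode the trains that kinesin-2 carries and the dynein that brings them back, 16 were tested and 0 passed. All 16 had a lower fitted value in *Morc2b*-/- testes, as had 6647 of the 13507 genes tested, with a median log2 fold change of -0.12. Without wild type replicate 4 the median was -0.060, with 14 genes lower, and without both libraries numbered 3 it was -0.15. *Ift172* was at 108, 109, 96.6 and 129 CPM in wild type and at 95.8, 96.9, 91.6 and 85.8 CPM in *Morc2b*-/- testes, which differ on the log2 scale by -0.26 ± 0.090 (SE, quasi-likelihood adjusted p = 0.9998 in edgeR). *Dync2h1*, the motor of the return journey, was at 281 ± 37.9 CPM in wild type and 236 ± 29.2 CPM in *Morc2b*-/- testes (SD, n = 4). Wild type replicate 4 was the highest library of *Ift172*, and markers of multiciliated cells (3 genes) summed to 72.3 CPM there against 19.7 to 33.2 CPM in the others. Markers of pachytene spermatocytes (9 genes) were also highest there, summing to 234, 210.5, 122 and 429 CPM in wild type and to 123, 153, 258 and 154 CPM in *Morc2b*-/- replicates 1 to 4, and the leptotene and zygotene markers were higher in replicates 2 and 4. The part of these markers in the values of the list was not tested.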

How the data were processed

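Poly(A) RNA of 8 pairs of testes was sequenced from stranded libraries. As to processing by the authors, reads were cleaned of adapters and poor sequence and aligned with Tophat to NCBI37/mm9, and the deposited values are raw read counts for each listed RefSeq transcript. The counting program and its strand setting are not given in the sources used here; the tally lines have the form of htseq-count. Symbols were found for 35522 of 35819 transcripts (the others held 0.484% of counts), and counts were summed by symbol. The test was the quasi-likelihood test of edgeR 4.0.16 (R 4.3.3) with TMM factors, filterByExpr at a minimum count of 10, and Benjamini-Hochberg adjustment over 13507 genes. Intervals (95%) use its standard errors and degrees of freedom and are not adjusted for the number of genes. Exact permutation tests ran over the 70 splits of log2 CPM with a prior count of 2. Alternatives were RLE scaling, DESeq2 1.42.0, limma-voom (limma 3.58.1), other filters, transcripts as units, a block, and libraries left out, of which the fit without both libraries numbered 3 was added after seeing the data. The calculations were tested on simulated counts with 200 genes changed by 2 (log2), up or down. Of these 91.5% were called, and 5.18% of the calls were false. The simulated libraries lacked the marker differences seen between the real ones, so this does not give the power in these data.

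Members and lists were chosen with earlier results of these data known. Values per library are given for the 2 highest genes of each role group, the 4 most variable genes and genes with known roles in dividing or germ cells. *Kif20b*, *Kif16b*, *Kif21b* and *Kif26a* were added after their values were seen. In each partner list the 2 genes with the smallest p and the highest gene are named. Each library is 1 male, litters are not stated, and p-values set the genotype difference against the spread between these libraries.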

Additional observations from a re-analysis of the deposited data

Results flagged for a closer look

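Within each genotype, a library was taken to stand apart where its gap to the nearest other, as a share of the range of the 4, passed Dixon's 95% critical value. Of 74 sets of 4 libraries (37 kinesin genes in both genotypes) 5 did so, 6.76%, where chance gives about 1 in 20. *Kif2b* stood apart in wild type replicate 1 (3.92 CPM) and in *Morc2b*-/- replicate 3 (9.17 CPM), the libraries with the most spermatid transcripts. *Morc2b*-/- replicate 1 was above the other *Morc2b*-/- libraries in *Kifc2* (28 CPM) and in *Kifc3* (1.13 CPM, from 35 counts). *Kif20a* was lowest in wild type replicate 3, at 1.32 CPM, from 37 counts.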

How the results depend on the processing

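No kinesin gene passed the adjusted threshold under any of 17 settings, and the median of all genes moved by less than 0.01 (log2). DESeq2 called 1 gene of all those tested (*Pkmyt1*). Of all tested genes, 249 of 13507 had an unadjusted p under 0.05 in edgeR as reported. There were 422 of 20113 without the filter, 232 of 12366 with at least 10 counts, and 421 of 13511 without both libraries numbered 3. On leaving out 1 library there were from 204 of 13667 (*Morc2b*-/- replicate 2) to 504 of 13734 (wild type replicate 3), and 385 of 13740 without *Morc2b*-/- replicate 1. The kinesin counts that follow stand beside these. Kinesin genes with an unadjusted p under 0.05 numbered 0 as reported, 1 without the filter (*Kif1a*), 1 with at least 10 counts in every library (*Kif20b*), 1 (*Kif2b*) without both wild type replicate 1 and *Morc2b*-/- replicate 3, 1 (*Kif24*) without both libraries numbered 3 (a setting chosen after seeing the data), and 0 to 3 on leaving out 1 library: *Kif2b* without wild type replicate 1, *Kif16b* without replicate 2, *Kif24* without replicate 3, *Kifc2* without replicate 4, *Kif18a*, *Kif20b* and *Kifc2* without *Morc2b*-/- replicate 1, and *Kif20b* without *Morc2b*-/- replicate 4. With a replicate block there were 3 (*Kif24*, *Kif16b*, *Kif20b*) and 572 of all genes in place of 249, but the labels do not say that replicate numbers pair the samples. Deviations of same-numbered libraries correlated at -0.156, 0.245, -0.322 and 0.453. Wild type replicates 1 to 4 correlated best with *Morc2b*-/- replicates 3, 2, 1 and 4. Whether any libraries are paired could not be settled from this. The median log2 fold change of the adaptors and light chains was -0.34 without the filter. That of the cilia and kinesin-2 group was -0.16 without both wild type replicate 1 and *Morc2b*-/- replicate 3. On leaving out 1 library, medians ran from -0.13 to -0.057 in that group, -0.27 to -0.049 in the C-type genes, -0.17 to -0.060 in intraflagellar transport, -0.086 to -0.0030 in spindle and midzone genes, -0.051 to -0.0092 in dynein and dynactin, and -0.0052 to 0.018 in adaptors and light chains. *Kifc3* turned to -0.0016 with RLE, -0.0018 with DESeq2, -0.0062 with at least 10 counts and -0.065 by transcript. Without both wild type replicate 1 and *Morc2b*-/- replicate 3, *Kif11* turned to 0.013, *Kif4* to 0.030 and *Kifc1* to 0.0028, *Kif26b* was at 0.13, *Kif20a* at 0.37 and *Kifc3* at 0.17. Without both libraries numbered 3, *Kif2b* turned to -0.71, *Kif5b* was at 0.11 and *Kif9* at -0.43. On leaving out 1 library, log2 fold changes ran from -0.14 to -0.0065 in *Kif11*, -0.14 to -0.020 in *Kif15*, -0.24 to -0.064 in *Kif6*, -0.16 to -0.031 in *Kifc5b*, -0.21 to 0.10 in *Kif17*, -0.067 to 0.082 in *Kif1c*, -0.011 to 0.32 in *Kif20a*, -0.016 to 0.073 in *Kif23*, -0.36 to 0.14 in *Kif26b*, -0.074 to 0.045 in *Kif27*, -0.36 to 3.09 in *Kif2b*, -0.12 to 0.0084 in *Kif2c*, -0.082 to 0.048 in *Kif3b*, -0.054 to 0.025 in *Kif4*, -0.019 to 0.095 in *Kif5b*, -0.34 to 0.059 in *Kif9*, -0.13 to -0.0033 in *Kifc1* and -0.23 to 0.10 in *Kifc3*. Of 373 alternative values of single genes 32 changed sign; the cause was not tested. A difference in any of the genes could go undetected at the adjusted threshold. In weakly counted genes with wide intervals, such as *Kif2b*, this holds even for differences larger than 1.5-fold.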
